A study of Mus musculus with 18 samples.

Results

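The scaffold of the postsynaptic density is described here through 9 genes measured in striatal RNA of mice, namely Dlg2, Dlg3, Dlg4, Dlgap1, Shank1, Shank2, Shank3, Homer1 and Camk2a. They were taken by symbol, each symbol matched 1 Ensembl identifier, and they are 9 of the 55421 genes in the count table. The groups held 5 WT mice, 5 zQ175 mice, 3 CK2a'(+/-) mice and 5 zQ175:CK2a'(+/-) mice, and each mouse gave 1 library. The zQ175 mouse is a model of Huntington's disease in which the endogenous Htt gene carries an expanded CAG repeat, so that no transgene promoter drives it. CK2a'(+/-) mice have lost 1 allele of Csnk2a2, the gene of the CK2a' catalytic subunit of protein kinase CK2, in all cells, and zQ175:CK2a'(+/-) mice carry both changes. All 4 groups were 12 to 14 months old, of C57BL/6 strain by their labels, and perfused with heparin in saline under Avertin. The labels name no sex and no batch for a library, and the study's methods give a sex ratio that differed between the genotypes. The study compared the genotypes to ask how the loss of a CK2a' allele bears on the RNA changes of the zQ175 striatum.

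The postsynaptic density is the protein mesh under the membrane of an excitatory synapse. In it, Dlg proteins hold receptors and channels through PDZ domains, Dlgap1 links the Dlg layer to the Shank proteins, and Shank proteins bind Homer, which connects to group I metabotropic glutamate receptors and to calcium stores. Camk2a is the calcium-activated kinase that is stored in the same mesh and acts on it during plasticity. In the striatum these synapses lie mainly on the spines of striatal projection neurons, which receive glutamate from cortex and thalamus and are the cells most affected in Huntington's disease.

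Total counts ranged from 13612381 to 22702547 per library, with a median of 18005044. Levels are given as CPM, which are counts scaled to library size with TMM factors, and, to compare genes, as RPKM, which are CPM per 1000 bases of exon. Csnk2a2 lay between 29.4 and 37.5 CPM in the 10 mice with both alleles and between 14.7 and 19.9 CPM in the 8 mice with 1 allele, as labelled. Htt lay between 119 and 188 CPM over all mice. All 14 markers of striatal projection neurons were detected in every library. The summed CPM of these markers differed within genotypes as well as between them, from 3820 to 8936 in WT mice, 2242 to 4314 in zQ175 mice, 6371 to 8621 in CK2a'(+/-) mice and 3635 to 4958 in zQ175:CK2a'(+/-) mice. Markers of neighbouring tissue also varied. The summed level of 8 cortical excitatory neuron markers was 535 CPM in zQ175 replicate 5 and between 132 and 263 CPM in the other 17 mice. The summed level of 3 thalamic neuron markers was 788 CPM in zQ175 replicate 1 and between 18.4 and 355 CPM in the others. Neurod6 and Slc30a3 of the cortical list were each at 0 in 1 library and Emx1 in 5. In bulk tissue, fewer cells of a type and less RNA per cell cannot be told apart.

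To show the genomic context of the genes, the 250 bases before the annotated start are printed for Homer1, Shank3 and Dlgap1, the first being the gene that most closely followed the projection neuron markers and the others examples of genes that did not. The sequences are from RefSeq on GRCm38.p6, all on the plus strand, and capitals mark GGGCGG, the SP1 motif, and TGACG, the half-site of the cAMP response element, on either strand.
Homer1, chr13:93303507-93303756: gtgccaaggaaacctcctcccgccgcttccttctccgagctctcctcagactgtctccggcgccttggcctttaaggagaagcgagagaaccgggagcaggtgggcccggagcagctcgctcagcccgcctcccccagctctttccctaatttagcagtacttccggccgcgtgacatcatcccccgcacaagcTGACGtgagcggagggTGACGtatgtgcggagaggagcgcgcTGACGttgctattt
Shank3, chr15:89499358-89499607: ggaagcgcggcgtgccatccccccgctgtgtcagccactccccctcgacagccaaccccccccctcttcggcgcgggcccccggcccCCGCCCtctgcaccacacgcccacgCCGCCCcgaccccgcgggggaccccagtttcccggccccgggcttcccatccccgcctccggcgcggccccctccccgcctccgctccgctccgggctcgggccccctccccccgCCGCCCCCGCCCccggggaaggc
Dlgap1, chr17:69968823-69969072: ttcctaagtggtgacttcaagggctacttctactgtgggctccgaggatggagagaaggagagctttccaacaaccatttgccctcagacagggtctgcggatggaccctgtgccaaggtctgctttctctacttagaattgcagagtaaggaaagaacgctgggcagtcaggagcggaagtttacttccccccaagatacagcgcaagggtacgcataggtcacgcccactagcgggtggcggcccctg
The Homer1 window held 3 half-sites and no GGGCGG, the Shank3 window held 4 GGGCGG on the minus strand, 2 of them abutting, and no half-site, and the Dlgap1 window held neither. Of 32851 windows of the same length, 32.7% held GGGCGG and 17.8% held TGACG on either strand. The end letters of these motifs can overlap, but no window shown held both. The 3 windows had 62.4%, 82.4% and 55.2% GC against a median of 52.4% over all windows. The table had windows for 6 of the 9 genes. Other starts exist for Homer1 and Dlgap1, and the counts do not show which was used. Of the windows not printed, the Dlg4 window from 70023732 and the Dlg3 window from 100774245 held 1 half-site each. The other windows of Dlg4, Dlg3, Homer1 and Dlgap1 and all windows of Dlg2 held none, although Dlg2 and Dlg4 also followed the projection neuron markers. A relation of the motifs to the levels was not tested.

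Ordered by RPKM in WT mice, Camk2a stood far above the rest and Dlgap1 lay lowest. The level was 128.2 ± 21.1 RPKM (SD, n = 5) for Camk2a, 36.8 ± 8.91 for Shank1, 35.5 ± 6.48 for Shank3, 35.3 ± 4.88 for Dlg4, 24.1 ± 6.12 for Dlg2, 22.1 ± 2.32 for Dlg3, 16.7 ± 5.43 for Homer1, 13.6 ± 0.995 for Shank2 and 9.37 ± 0.162 for Dlgap1. Camk2a was above Shank1 in all 18 mice, and the WT ranges of the 2 genes did not overlap. Neighbours from Shank1 down to Shank2 had overlapping WT ranges, although Dlg2 was below Dlg4 and Homer1 below Dlg3 in all 18 mice, and the order of Shank1, Shank3 and Dlg4, of Dlg2 and Dlg3, and of Homer1 and Shank2 was not larger than the spread between mice. The range of Dlgap1 lay below that of Shank2 without overlap, and Dlgap1 was the lower in all 18 mice. These lengths are of merged exons, and a gene that mostly uses short transcripts is understated on this scale. Dlg2, Dlgap1, Shank1 and Shank3 share exonic bases with another annotated gene, at most 3.22% of their length (Shank1), and the strand setting of the counting is not given in the sources used here.

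The 9 genes are given next from the membrane inward, with every mouse in the order of its replicate number. Dlg4 (ENSMUSG00000020886, GRCm38 chromosome 11, 70016942 to 70047522) encodes PSD-95, the main scaffold under the receptors. Its level was 473, 567.5, 472, 430 and 395 CPM in WT mice, 368, 416, 408, 426 and 476 in zQ175 mice, 467, 481 and 554 in CK2a'(+/-) mice, and 434, 383, 406, 479 and 406 in zQ175:CK2a'(+/-) mice. All pairs of groups overlapped for Dlg4, and the 3 CK2a'(+/-) mice lay in the upper part of the range. Dlg2 (ENSMUSG00000052572, chromosome 7, 90476672 to 92449247) encodes PSD-93, a close relative of PSD-95, and is the longest gene of the set at 1972576 bases. Its level was 413, 622, 373, 393 and 353 CPM in WT mice, 280, 476, 412, 461 and 438 in zQ175 mice, 460, 426 and 506 in CK2a'(+/-) mice, and 461, 463, 449, 460 and 419 in zQ175:CK2a'(+/-) mice. WT replicate 2 was highest for Dlg2 and zQ175 replicate 1 lowest, and the zQ175:CK2a'(+/-) mice were the most alike. Dlg3 (ENSMUSG00000000881, chromosome X, 100767722 to 100818410) encodes SAP102, which carries NMDA receptors early in synapse formation. Its level was 118, 149, 117, 136 and 127 CPM in WT mice, 119, 127.9, 159, 130 and 183 in zQ175 mice, 121, 116 and 133 in CK2a'(+/-) mice, and 144, 136, 152, 149 and 138 in zQ175:CK2a'(+/-) mice. All 5 zQ175:CK2a'(+/-) mice were above all 3 CK2a'(+/-) mice for Dlg3, while the other groups overlapped.

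Dlgap1 (ENSMUSG00000003279, chromosome 17, 69969073 to 70821413) encodes GKAP, the adaptor between the Dlg and Shank layers. Its level was 168, 167, 173, 167 and 165 CPM in WT mice, 202, 188, 175, 161 and 303 in zQ175 mice, 189, 201 and 156 in CK2a'(+/-) mice, and 178, 161, 173, 133 and 178 in zQ175:CK2a'(+/-) mice. The WT mice were nearly level for Dlgap1, and zQ175 replicate 5 stood far above every other mouse.

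Shank1 (ENSMUSG00000038738, chromosome 7, 44310253 to 44360572), Shank2 (ENSMUSG00000037541, chromosome 7, 144001928 to 144424494) and Shank3 (ENSMUSG00000022623, chromosome 15, 89499623 to 89560261) encode the 3 master scaffolds of the deeper layer, of which Shank3 is the form best known in striatal spines. The level of Shank1 was 316, 258, 458, 458 and 446 CPM in WT mice, 731, 451, 427, 452 and 595 in zQ175 mice, 437, 513 and 260.2 in CK2a'(+/-) mice, and 375, 339, 427, 359 and 569.9 in zQ175:CK2a'(+/-) mice. Shank1 had a wide spread in every genotype, and its highest mouse was zQ175 replicate 1. The level of Shank2 was 136, 144, 139, 150.2 and 163 CPM in WT mice, 165, 181, 182, 179 and 185 in zQ175 mice, 164, 139 and 119 in CK2a'(+/-) mice, and 161, 157, 156, 149 and 175 in zQ175:CK2a'(+/-) mice. All 5 zQ175 mice lay above all 5 WT mice for Shank2. The level of Shank3 was 306, 395, 385, 294 and 258 CPM in WT mice, 340.2, 269.9, 304, 304 and 305 in zQ175 mice, 366, 426 and 340.1 in CK2a'(+/-) mice, and 288, 266, 290.2, 296 and 322 in zQ175:CK2a'(+/-) mice. All 5 zQ175:CK2a'(+/-) mice lay below all 3 CK2a'(+/-) mice for Shank3.

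Homer1 (ENSMUSG00000007617, chromosome 13, 93299635 to 93405129) encodes the Homer proteins that bind Shank, including a short activity-induced form that the gene counts do not separate from the long ones. Its level was 209, 301, 203, 155 and 133 CPM in WT mice, 99.2, 207, 185, 185 and 169 in zQ175 mice, 229, 235 and 231 in CK2a'(+/-) mice, and 174, 184, 172, 199 and 151 in zQ175:CK2a'(+/-) mice. The 3 CK2a'(+/-) mice were close together for Homer1 and above all 5 zQ175:CK2a'(+/-) mice, while the WT mice spanned the range of all other groups except zQ175 replicate 1. Camk2a (ENSMUSG00000024617, chromosome 18, 60925618 to 60988152) encodes the alpha subunit of the kinase. Its level was 958, 1226, 842, 852 and 908 CPM in WT mice, 746, 933, 899, 950.2 and 1664 in zQ175 mice, 968, 966 and 1210.0 in CK2a'(+/-) mice, and 1026, 857, 898, 1042 and 841 in zQ175:CK2a'(+/-) mice. Camk2a in zQ175 replicate 5 was above every other mouse, and the other 17 mice overlapped between the genotypes.

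**Figure D1:**
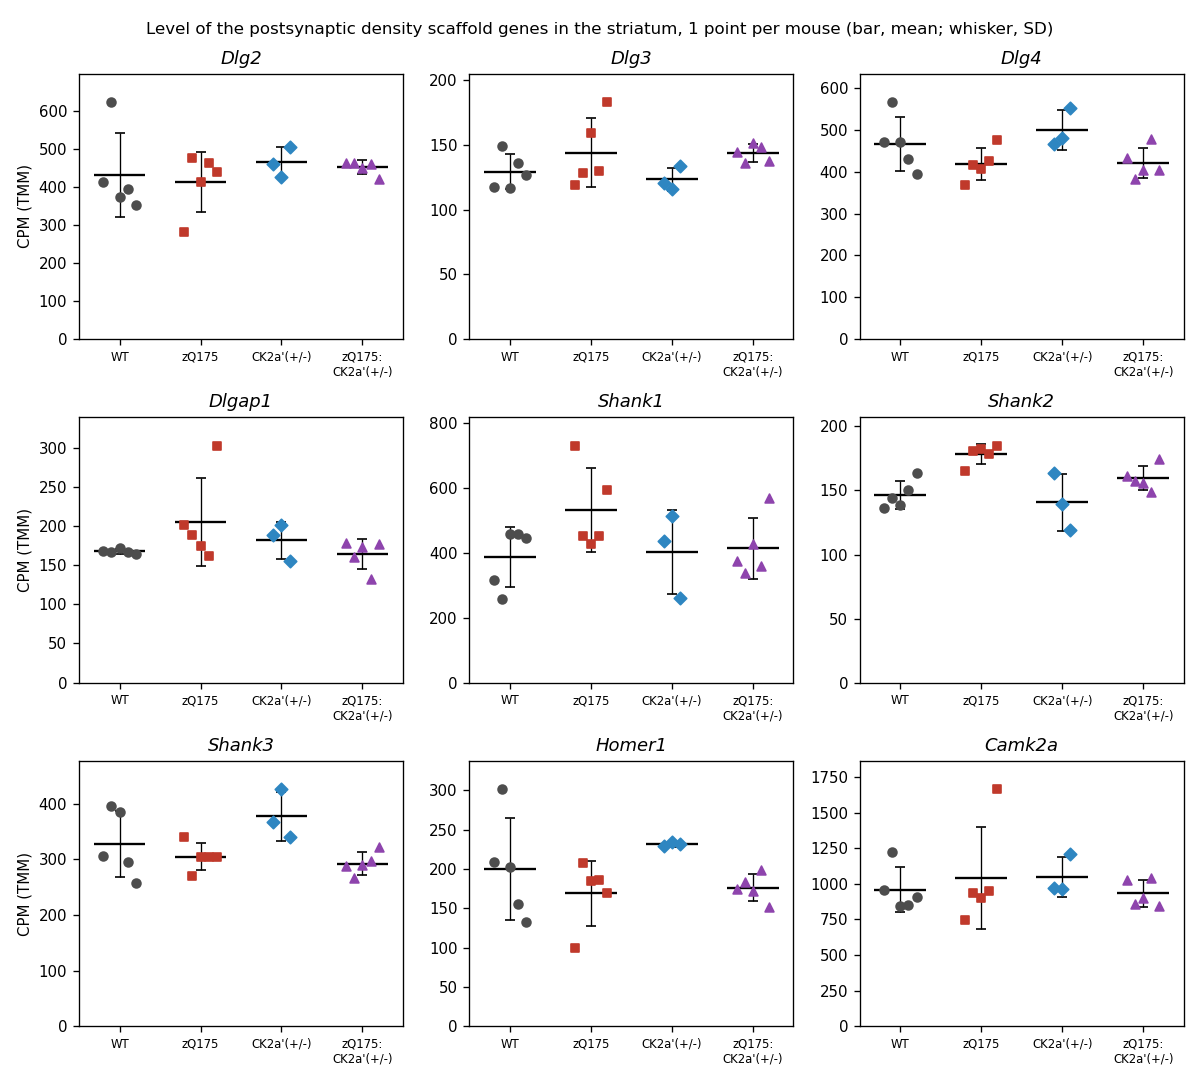
Level of each of the 9 scaffold genes in CPM after TMM scaling (vertical axis, from 0) in the 18 mice by genotype (horizontal axis), with 1 point per mouse, a bar at the group mean and a whisker of 1 SD. For Shank2 the 5 zQ175 mice, from 165 to 185 CPM, sit above the 5 WT mice, from 136 to 163 CPM, and single high mice are seen for Dlg2 in WT and for Dlgap1 and Camk2a in zQ175.

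The comparison of zQ175 with WT asks how the scaffold RNAs stand in the disease model. None of the 9 genes passed an FDR, the Benjamini-Hochberg adjusted p over all 20914 genes tested with edgeR's quasi-likelihood test, of 0.1, where 1.10% of all genes passed. At an unadjusted p under 0.05 there were 3 of 9, all higher in zQ175 mice, against 13.9% of all genes and 6.79% for higher ones alone. This count was 1 of 9 (Shank2) with the level of Xist as a covariate, where 2660 of all 20914 genes had such a p. It was also 1 without WT replicate 1 (2387 of 20813 genes) or WT replicate 2 (3157 of 20840). Without zQ175 replicate 5 it was 2 (Shank2, higher, and Dlg4, lower), beside 2566 of 20814 genes. It was 4 without WT replicate 5 (2660 of 20801 genes) and 5 with an offset for GC content (2531 of 20914). Shank2 came nearest, with a fold of 1.22 (log2 0.28 ± 0.0788 SE, 95% interval 0.12 to 0.447, edgeR adjusted p = 0.11). It was the only one of the 9 whose groups did not overlap, which 1.26% of genes did in the higher direction. DESeq2, as an alternative, gave Shank2 an adjusted p of 0.0327 and so called 1 of 9, where it called 2.28% of 37559 genes. This base of all DESeq2 shares given here also holds low-count genes that edgeR's filter left out. Shank2 also passed with a robust fit (1.50% of all genes called) and with an offset for GC content (0.301%). Shank1 had a fold of 1.37 (log2 0.46 ± 0.196, edgeR adjusted p = 0.305), and without zQ175 replicate 1 its log2 value was 0.31 (edgeR adjusted p = 0.53). Dlgap1 had a fold of 1.23 (log2 0.30 ± 0.128, edgeR adjusted p = 0.311), and without zQ175 replicate 5 its log2 value was 0.11 (edgeR adjusted p = 0.668). For the others the log2 differences were 0.15 for Dlg3, 0.12 for Camk2a, -0.06 for Dlg2, -0.10 for Shank3, -0.16 for Dlg4 and -0.24 for Homer1, with edgeR FDR between 0.477 and 0.889. For Camk2a the sign rested on zQ175 replicate 5, without which the log2 value was -0.12. That of Dlg2 turned to 0.10 without WT replicate 2 and to 0.05 without zQ175 replicate 1, and Homer1 ran from -0.36 without WT replicate 5 to -0.06 without WT replicate 2. Leaving out 1 mouse also brought Dlg3 to 0.0501 (zQ175 replicate 5), Dlg4 to -0.0928 (WT replicate 2) and Shank3 to -0.0374 (WT replicate 3) or -0.18 (WT replicate 5). The median log2 difference of the 9 genes was 0.117 and that of all genes 0.00424. Beside these values, the summed projection neuron markers were lower in zQ175 mice, with 3 of 14 passing the test (Adora2a, Penk and Ppp1r1b), and the cortical markers higher, with 1 of the 7 tested passing (Tbr1). The 6 pan-neuronal markers summed to 3113 to 3316 CPM in WT mice and to 3409 to 3782 CPM in zQ175 mice, without overlap, and none of the 6 passed the test singly. The oligodendrocyte markers Mbp and Mobp also passed and were lower. Their part in the differences of Shank2, Shank1 and Dlgap1 was not tested. Without zQ175 replicate 5 no gene of the table passed FDR 0.1 in edgeR, these markers included, with 2566 of 20814 genes at an unadjusted p under 0.05, and Shank2 had a log2 value of 0.27 (edgeR FDR 0.205).

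The comparison of zQ175:CK2a'(+/-) with zQ175 asks what the loss of a CK2a' allele does within the disease model. It shares the zQ175 mice with the comparison above, so that a high zQ175 mouse moves both. None of the 9 genes passed FDR 0.1, where 0.0143% of all genes passed in edgeR and 0.104% in DESeq2. Dlgap1 was the 1 gene of 9 with an unadjusted p under 0.05, against 6.27% of all genes and 3.51% for lower ones, with a fold of 0.799 (log2 -0.32 ± 0.129, 95% interval -0.591 to -0.0561, edgeR adjusted p = 0.694). Without zQ175 replicate 5 its log2 value was -0.14 (edgeR adjusted p = 0.896). The count of 1 became 0 without zQ175 replicate 5 or zQ175:CK2a'(+/-) replicate 4 and with the Xist covariate, and 3 (Dlgap1, Shank1 and Shank2) without zQ175:CK2a'(+/-) replicate 5, with these 2 groups alone in the fit and with the GC offset. In the fits with 0, in the order named, 1238 of 20814, 1180 of 20803 and 1111 of 20914 genes had such a p. In those with 3 it was 1380 of 20816, 1202 of 18326 and 1292 of 20914. Shank1 stood at log2 -0.36 (95% interval -0.766 to 0.0475) and Shank2 at -0.16 (-0.325 to 0.00259), with edgeR FDR of 0.831 and 0.812. Without zQ175 replicate 1 the log2 value of Shank1 was -0.21. The remaining 6 genes lay between log2 -0.15 for Camk2a, which turned to 0.0838 without zQ175 replicate 5, and 0.12 for Dlg2, which was 0.0141 without zQ175 replicate 1. For Dlg4 the log2 difference was 0.01, with a 95% interval from -0.185 to 0.205, and for Dlg3 it was -0.0013, with an interval from -0.212 to 0.209. Beside these values, the summed cortical markers lay from 226.8 to 534.5 CPM in zQ175 mice and from 179.9 to 221.1 CPM in zQ175:CK2a'(+/-) mice, without overlap. None of the 7 tested passed FDR 0.1, and 5 had an unadjusted p under 0.05, among them Slc17a7 at log2 -2.24 and Tbr1 at -1.45 (edgeR FDR 0.328 for both). Their part in the values of Dlgap1, Shank1 and Shank2 was not tested.

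Between zQ175:CK2a'(+/-) and WT mice, which differ by both changes, all 9 genes had overlapping groups. None of 9 passed FDR 0.1 in edgeR or DESeq2, where 0.0143% and 0.327% of all genes passed, and none had an unadjusted p under 0.05 in edgeR, which 9.13% of all genes had. Without WT replicate 5 there were 2 with such a p (Dlg4 and Shank3, lower), beside 1904 of 20801 genes. With the GC offset there was 1 (Shank2, higher), beside 1728 of 20914 genes. The log2 differences ran from -0.18 for Homer1 (95% interval -0.555 to 0.188) to 0.15 for Dlg3 (-0.0578 to 0.363). Without WT replicate 2 the value of Homer1 was -0.0028, and without WT replicate 5 it was -0.30. Shank2 was at 0.12 (-0.0415 to 0.286, edgeR FDR 0.682), and its groups overlapped. These mice shared the WT controls with the first comparison, so the values stand side by side and are no second observation.

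The CK2a'(+/-) mice show the loss of the allele without the disease gene. Against WT none of 9 genes passed FDR 0.1 in edgeR or DESeq2, where 0.0143% and 0.0293% of all genes passed, and none had an unadjusted p under 0.05 in edgeR, which 4.48% of all genes had. Without WT replicate 2 there were 3 with such a p (Dlg2, Homer1 and Shank3, higher), beside 1659 of 20840 genes. Without WT replicate 3 there was 1 (Shank3), beside 959 of 20812 genes. Homer1, at log2 0.21 (95% interval -0.215 to 0.637), and Shank3, at 0.20 (-0.0432 to 0.452), had the highest values, and Dlg3 at -0.07 (-0.312 to 0.175) the lowest. Over the fits without 1 mouse Homer1 ran from 0.0938 (without WT replicate 5) to 0.41 (without WT replicate 2) and Shank3 from 0.109 (without CK2a'(+/-) replicate 2) to 0.28 (without WT replicate 2). The 3 mice of the group limit the precision, and for Homer1, Shank1 and Camk2a the intervals reached beyond log2 0.5.

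Between zQ175:CK2a'(+/-) and CK2a'(+/-) mice, which differ by the disease gene on a background of 1 CK2a' allele, Shank3, Dlg4 and Homer1 had the lowest values. None of 9 genes passed FDR 0.1 in edgeR or DESeq2, where 0.593% and 0.857% of all genes passed, and 2 of 9 had an unadjusted p under 0.05, both lower, against 9.19% of all genes and 4.86% for lower ones. The 2 were 1 without CK2a'(+/-) replicate 2 or 3, without zQ175:CK2a'(+/-) replicate 2, 3 or 5 and with the replicate number as a block, 4 without zQ175 replicate 1 or with these groups alone, and 5 with the GC offset. In the fits with 1, from 1442 of 21773 to 1770 of 20801 genes had such a p. This was 2073 of 20815 without zQ175 replicate 1, 2250 of 18974 with these groups alone and 1940 of 20914 with the GC offset. Shank3 had a fold of 0.775 (log2 -0.37 ± 0.119, 95% interval -0.615 to -0.122, edgeR adjusted p = 0.257). Dlg4 had a fold of 0.842 (log2 -0.25 ± 0.108, edgeR adjusted p = 0.478) with groups that overlapped. Homer1 had a fold of 0.761 (log2 -0.39 ± 0.204, edgeR adjusted p = 0.586). Groups did not overlap for Shank3 and Homer1, lower, and for Dlg3, higher at log2 0.22 (edgeR FDR 0.608), whereas 4.48% of genes were lower and 3.86% higher without overlap. With these 2 groups alone in the fit, Homer1 (edgeR FDR 0.0307) and Shank3 (FDR 0.0617) passed, so 2 of 9 were called in place of none, beside 2.43% of all genes in that fit. The summed projection neuron markers lay from 6371 to 8621 CPM in the CK2a'(+/-) mice and from 3635 to 4958 CPM in the zQ175:CK2a'(+/-) mice, without overlap, with 2 of 14 markers passing the test, both lower. Other summed markers did not overlap between these groups either. The astrocyte markers lay from 3518 to 3948 CPM in CK2a'(+/-) and from 2952 to 3247 CPM in zQ175:CK2a'(+/-) mice, the oligodendrocyte markers from 5322 to 6695 and from 3748 to 5099 CPM, and the cortical markers from 144 to 169 and from 179.9 to 221 CPM. Of single genes in these lists Mobp passed, lower at log2 -0.59 (edgeR FDR 0.0989). The 124 genes of the table that passed here became 6 without CK2a'(+/-) replicate 2, 8 without CK2a'(+/-) replicate 3 and 28 without zQ175:CK2a'(+/-) replicate 4. The part of these markers in the differences of Homer1 and Shank3 was not tested.

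The interaction term asks whether the effect of the zQ175 gene differs with the number of CK2a' alleles. None of 9 genes passed FDR 0.1 in edgeR or DESeq2, where 0.00478% and 0.0506% of all genes passed, and 1 of 9, Dlgap1, had an unadjusted p under 0.05, against 5.39% of all genes and 2.48% for lower ones. This count ran from 0 to 2 over the fits without 1 mouse, being 0 without zQ175 replicate 5, CK2a'(+/-) replicate 1 or 2 or zQ175:CK2a'(+/-) replicate 4, and 0 with the Xist covariate. Over the fits without 1 mouse, from 919 of 21772 to 1560 of 20840 genes had such a p, and 956 of 20914 with the Xist covariate. The term of Dlgap1 was log2 -0.44 ± 0.195 (95% interval -0.848 to -0.0358, edgeR adjusted p = 0.916). It was -0.26 without zQ175 replicate 5 (edgeR adjusted p = 0.955) and -0.27 with the level of Xist as a covariate (adjusted p = 0.997). The term of Shank1 was similar in size at -0.42, but its interval ran from -1.04 to 0.20.

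**Figure D2:**
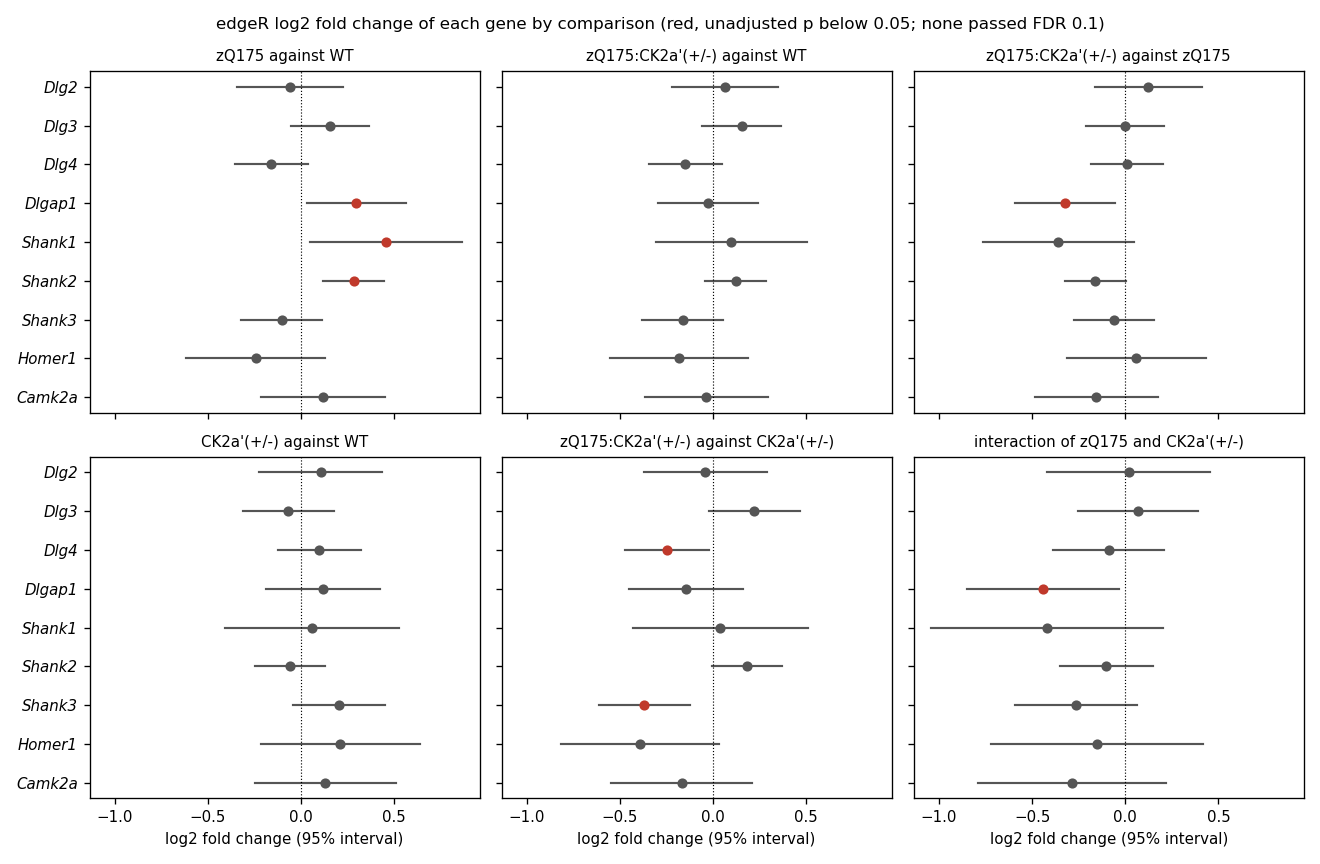
Log2 fold change of each scaffold gene with its 95% interval (horizontal axis) in the 5 pairwise comparisons and the interaction term, from edgeR's fit of all 18 mice, with genes on the vertical axis. Points in red have an unadjusted p under 0.05, 3 of them for zQ175 against WT (Dlgap1, Shank1 and Shank2), and none passed FDR 0.1.

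The balance within the Dlg and Shank genes was computed in each mouse as the share of each gene in the summed RPKM of the 3 Dlg or the 3 Shank genes, a measure chosen after the values were seen. Library scaling cancels in it. The share of Dlg4 among Dlg2, Dlg3 and Dlg4 was 45.2%, 41.5%, 46.5%, 41.7% and 41.9% in WT mice, 43.5%, 39.3%, 38.0%, 40.1% and 39.2% in zQ175 mice, 43.1%, 45.4% and 45.0% in CK2a'(+/-) mice, and 39.3%, 37.0%, 37.5%, 41.4% and 39.4% in zQ175:CK2a'(+/-) mice. All zQ175:CK2a'(+/-) mice were below all WT and CK2a'(+/-) mice in this share, and in zQ175 mice 4 of 5 were below the lowest WT mouse. Against WT the difference in the zQ175:CK2a'(+/-) mice was -4.44 percentage points (exact permutation test, two-sided p = 0.00794, the smallest that 5 against 5 allow, adjusted p = 0.238 over 30 tests). The share of Dlg3 was 5.26 points higher in zQ175:CK2a'(+/-) than in CK2a'(+/-) mice, 30.1% against 24.9%, without overlap (exact permutation p = 0.0357, adjusted p = 0.268). Among the Shank genes, Shank3 made up 41.5 ± 7.91% in WT mice (SD, n = 5), 33.2 ± 2.74% in zQ175 mice (n = 5), 44.9 ± 5.11% in CK2a'(+/-) mice (n = 3) and 37.1 ± 2.60% in zQ175:CK2a'(+/-) mice (n = 5). Shank1 made up 42.6%, 49.9%, 40.8% and 45.5% in the same order. No share passed an adjusted p of 0.1, and the lowest was 0.238. With 3 against 5 mice the smallest possible exact permutation p is 0.0357. Over 30 tests, not passing therefore does not show that the shares are alike. The share of Dlg2 stayed between 24.6% and 33.8% over all mice, with group means from 29.0% to 30.9%.

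**Figure D3:**
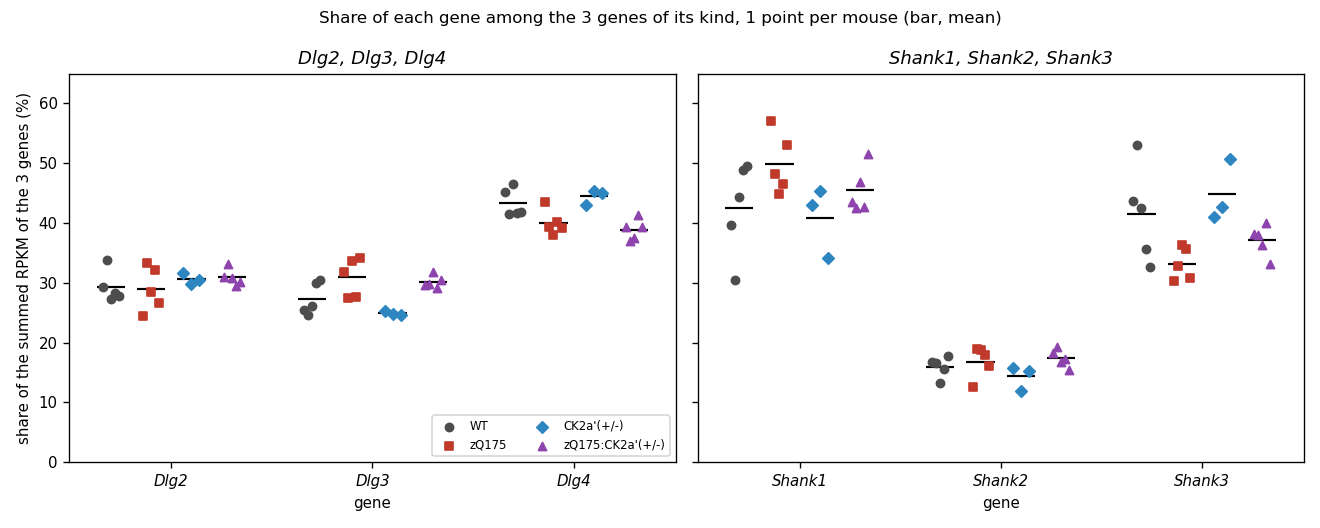
Share of each gene in the summed RPKM of the 3 Dlg genes (left) or of the 3 Shank genes (right) in percent (vertical axis, from 0), 1 point per mouse by genotype, with a bar at the mean. The Dlg4 share of the 5 zQ175:CK2a'(+/-) mice, 37.0% to 41.4%, sits below that of the 3 CK2a'(+/-) mice, 43.1% to 45.4%, and the Shank2 share is the smallest of the Shank genes in every group.

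The 9 genes did not all vary together over the 18 mice. Homer1, Dlg2 and Dlg4 varied together, with a Pearson r of log2 CPM of 0.841 between Homer1 and Dlg2 (rho = 0.571), 0.798 between Homer1 and Dlg4 (rho = 0.748) and 0.64 between Dlg2 and Dlg4 (rho = 0.387). Camk2a had r = 0.677 with Dlg4, 0.568 with Dlg2 and 0.451 with Homer1, and without zQ175 replicate 5 these were 0.85, 0.818 and 0.771. Shank1 ran against the first 3 genes, at -0.703 with Homer1 (rho = -0.529), -0.722 with Dlg2 (rho = -0.583) and -0.602 with Dlg4 (rho = -0.323). With Camk2a the r of Shank1 was -0.293, and -0.825 without zQ175 replicate 5. Shank1, Shank2 and Dlgap1 formed a looser group, with r of 0.596 (Shank1 with Shank2), 0.59 (Shank1 with Dlgap1) and 0.431 (Shank2 with Dlgap1). Without zQ175 replicate 5 these were 0.547, 0.598 and 0.276, and with group means subtracted 0.428, 0.493 and 0.333. Over 18 mice in 4 genotypes these values are descriptions without a test, and the points share library depth, tissue sample and genotype. With group means subtracted the r of Homer1 with Dlg2 was 0.896 and that with Shank1 -0.703. These values are pooled over the genotypes and do not show the relation in each. Among the CK2a'(+/-) mice, replicate 2 had the highest Homer1, the lowest Dlg2 and the highest Shank1. Shank3 followed none of the genes closely, its highest r being 0.585 with Dlg4.

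The same split appeared against the summed level of the cell type markers. Homer1 followed the 14 projection neuron markers most closely, with r = 0.916 and rho = 0.917 over the 18 mice, 0.942 with group means subtracted, and 0.906 without the 2 libraries farthest from the median marker level, WT replicate 2 and CK2a'(+/-) replicate 3. Dlg4 had r = 0.872 (rho = 0.748) and Dlg2 r = 0.726 (rho = 0.556), which were 0.76 and 0.573 without those 2 libraries. For Camk2a the r was 0.417 (rho = 0.56), 0.84 without zQ175 replicate 5 and 0.175 without the 2 libraries. The same genes were also higher where the 6 astrocyte markers were higher, with r = 0.796 for Homer1, 0.792 for Dlg4, 0.678 for Dlg2 and 0.557 for Camk2a. Thus the mouse with the lowest marker level, zQ175 replicate 1 at 2242 CPM, also had the lowest Homer1, Dlg2 and Dlg4, and the mouse with the highest, WT replicate 2 at 8936 CPM, the highest. Shank1 was lower where the markers were higher, with r = -0.796 (rho = -0.637), -0.832 with group means subtracted and -0.636 without the 2 libraries. Shank1 was also higher where the thalamic markers were higher, at r = 0.706 (rho = 0.647), and Camk2a lower, at r = -0.713 (rho = -0.709), as were Dlg2, at -0.698 (rho = -0.68), and Dlg4, at -0.583 (rho = -0.503). Shank2 was higher where the cortical markers were higher, at r = 0.732 (rho = 0.777), 0.757 without zQ175 replicate 5 and WT replicate 1, and 0.366 with group means subtracted. By median over the 18 mice, Sv2b held 154 CPM of the cortical sum, Slc17a7 31.3 CPM and each other marker at most 7.52 CPM. Mean Sv2b was 132 CPM in WT, 175 in zQ175, 116 in CK2a'(+/-) and 164 in zQ175:CK2a'(+/-) mice. Mean Slc17a7 was 27.0, 82.1, 32.5 and 17.5 CPM in the same order. Shank2 was lower where the projection neuron markers were higher, at r = -0.693 (rho = -0.721), -0.566 without WT replicate 2 and CK2a'(+/-) replicate 3 and -0.332 with group means subtracted. With the oligodendrocyte markers its r was -0.589 (rho = -0.659), -0.534 without zQ175 replicates 1 and 5, and 0.185 with group means subtracted. With the pan-neuronal markers it was 0.619 (rho = 0.692), 0.593 without the same 2 libraries, and 0.133 with group means subtracted. For Dlg3 the r with the cortical markers was 0.727 (rho = 0.55), and 0.426 without zQ175 replicate 5 and WT replicate 1. For Dlgap1 it was 0.63 (rho = 0.234) and -0.00749 without them, and for Camk2a 0.473 (rho = 0.00722) and -0.223, so for these 2 genes the relation with the cortical markers rested on zQ175 replicate 5. Shank3 had r = 0.493 (rho = 0.432) with the projection neuron markers, 0.671 (rho = 0.492) with the astrocyte markers, which was 0.369 without the 2 libraries farthest in that level, and 0.654 (rho = 0.686) with the endothelial markers, which was 0.655 without the 2 farthest. In all, 90 such pairs were computed.

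**Figure D4:**
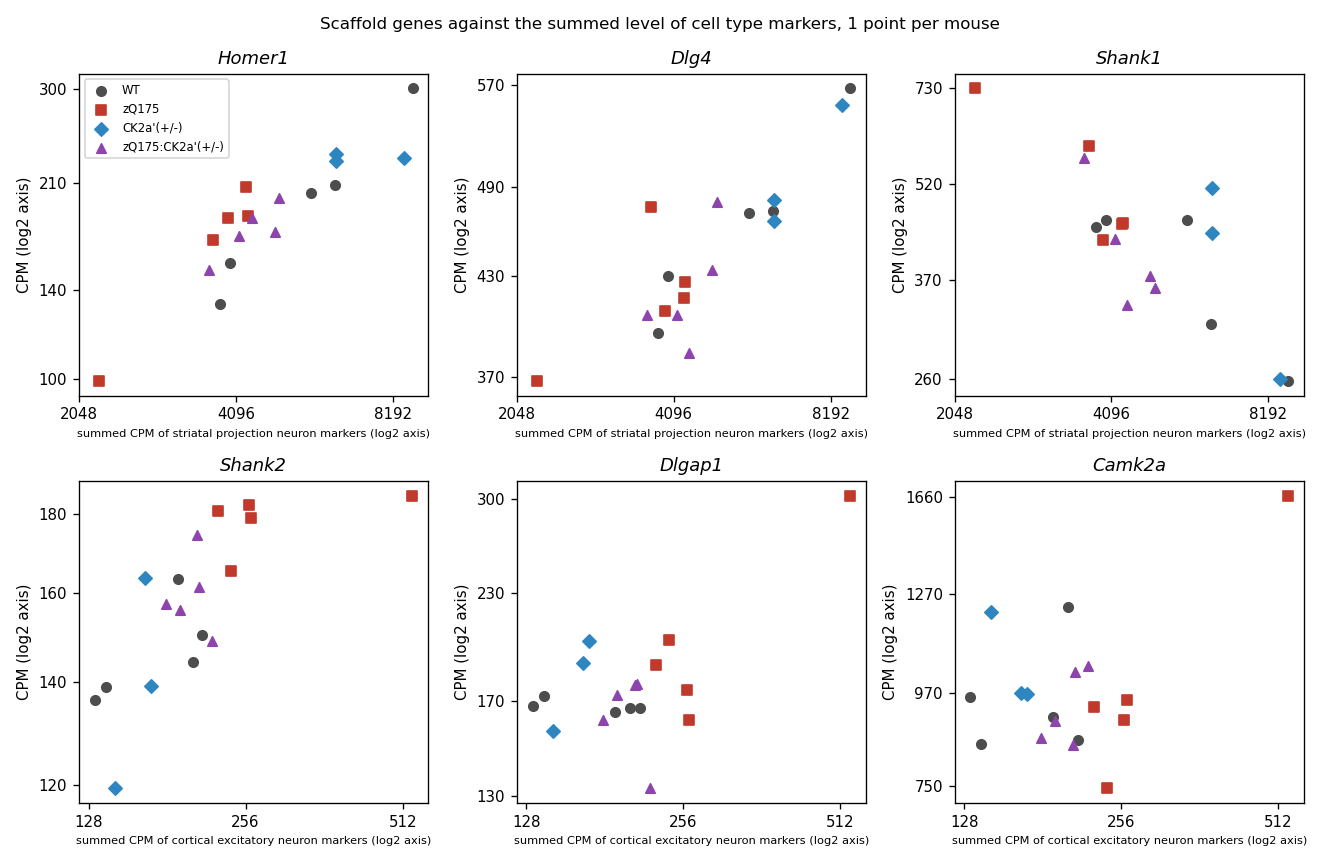
CPM of 6 scaffold genes (vertical axes, log2) against the summed CPM of projection neuron markers (top) or cortical excitatory neuron markers (bottom) on log2 horizontal axes, 1 point per mouse by genotype. Homer1 and Dlg4 are higher and Shank1 lower toward high projection neuron markers, and zQ175 replicate 5, at 535 CPM of cortical markers, holds the highest Dlgap1 and Camk2a points.

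**Figure D5:**
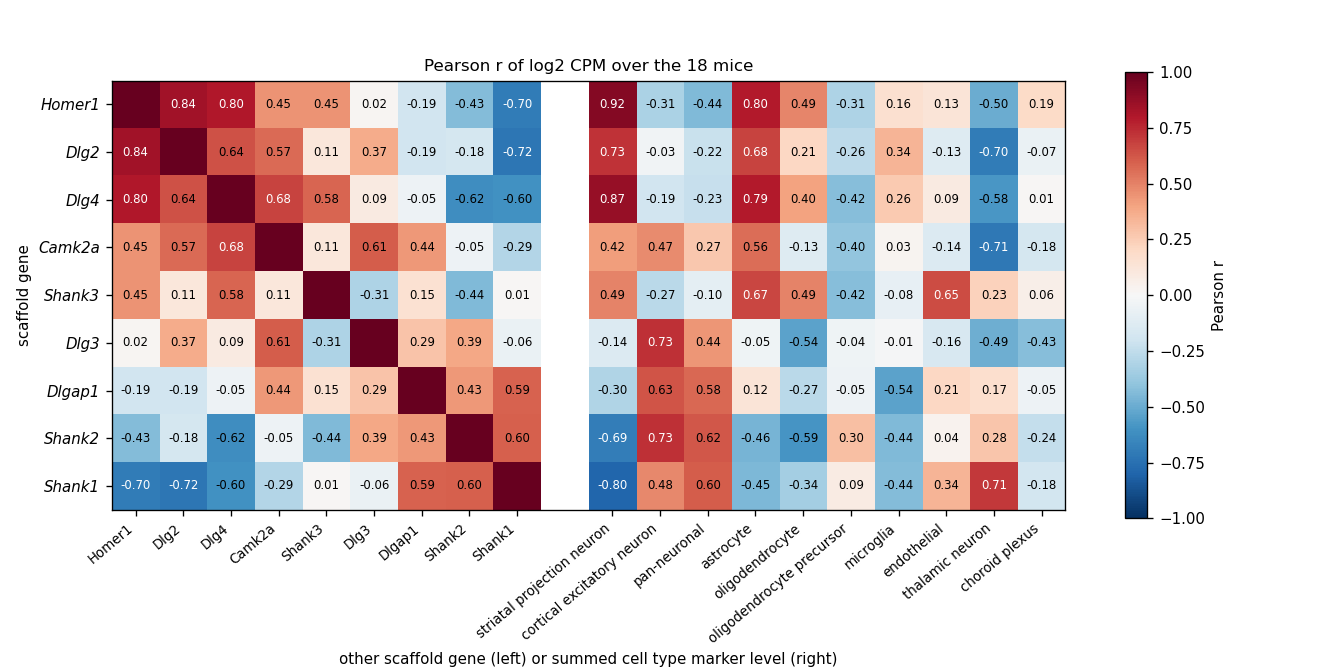
Pearson r of log2 CPM over the 18 mice between the 9 scaffold genes (left block) and between each gene and the summed level of each cell type marker list (right block), with genes on the vertical axis and colour from -1 to 1. Homer1, Dlg2 and Dlg4 form a positive block (0.64 to 0.841) that is negative with Shank1 (-0.602 to -0.722).

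Gene models within the introns of Dlg2 and Homer1 were also examined, a choice made after the values were seen. Leaving out Gm45159 and Gm45131, which share exonic bases with Dlg2, the annotation places 20 gene models on the same strand within Dlg2 and 8 on the opposite strand, and the former held 95389 counts over the 18 libraries and the latter 85. The summed level of the 20 models followed that of Dlg2 itself with r = 0.899 over the 18 mice, and 0.951 with group means subtracted. Their level was 272 ± 61.7 CPM in WT mice (SD, n = 5), 300.0 ± 74.2 in zQ175 mice (n = 5), 291 ± 15.0 in CK2a'(+/-) mice (n = 3) and 318 ± 26.5 in zQ175:CK2a'(+/-) mice (n = 5). Relative to Dlg2 itself, the log2 ratio of this sum to the exonic level lay from -0.716 to -0.623 in WT mice, -0.627 to -0.311 in zQ175 mice, -0.798 to -0.586 in CK2a'(+/-) mice and -0.579 to -0.398 in zQ175:CK2a'(+/-) mice. These ratios were not tested, and no share over other genes was computed for them. None of the 20 models passed FDR 0.1 in edgeR in any of the 6 comparisons, with between 0 and 3 at an unadjusted p under 0.05. The exact two-sided permutation p of the summed level was at least 0.127 in the 5 pairwise comparisons. The 2 models within Homer1 held only 2831 counts, and their sum had r = 0.323 with Homer1. It was higher in CK2a'(+/-) than in WT mice by log2 0.99 (exact two-sided permutation p = 0.0357, the smallest that 3 against 5 allow, adjusted p = 0.357 over the 10 tests of both genes). Total RNA libraries keep unspliced RNA, and whether these counts are unspliced RNA of the 2 genes or separate transcripts was not tested.

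The wider postsynaptic density was read from lists of other genes. Of 42 further scaffold and signalling genes, 1 passed FDR 0.1 in edgeR for zQ175 against WT and 8 had an unadjusted p under 0.05, where 1.10% and 13.9% of all genes did. The gene that passed was Prickle2, a planar polarity protein of the postsynaptic density, at log2 0.33 ± 0.0843 (FDR 0.0946), from 171 CPM in WT mice, and it too did not pass without zQ175 replicate 5. Homer2, a relative of Homer1, was next at log2 0.74 ± 0.234 (edgeR FDR 0.158). The median over the list was 0.0575 beside 0.00424 over all genes. None of the 42 passed in the other comparisons, with 1 to 5 at an unadjusted p under 0.05, beside 4.48% to 9.19% of all genes. For zQ175:CK2a'(+/-) against zQ175 the smallest p belonged to Shisa6, an AMPA receptor auxiliary protein, at log2 -1.60 (edgeR FDR 0.516), and Homer2 followed at -0.59 (FDR 0.694). Between zQ175:CK2a'(+/-) and WT they belonged to Prickle2 at 0.25 (FDR 0.384) and Git1 at -0.21 (FDR 0.433). For CK2a'(+/-) against WT they belonged to Begain at -0.23 and Lrrc7 at 0.20, both at FDR 0.999. Between zQ175:CK2a'(+/-) and CK2a'(+/-) they belonged to Prickle2 at 0.30 (FDR 0.265) and Camk2b, the beta subunit of the kinase, at -0.40 (FDR 0.276).

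The receptors and adhesion proteins that the scaffold holds, 20 genes of which 19 were tested, had no gene past FDR 0.1 in edgeR in any comparison and 1 to 4 at an unadjusted p under 0.05, beside 4.48% to 13.9% of all genes. Cacng8 of this list was too low to be tested. For zQ175 against WT the smallest p belonged to the synaptic adhesion protein Lrrtm2 at log2 0.31 ± 0.0975 (edgeR FDR 0.149) and to the NMDA receptor subunit Grin2a at 0.41 ± 0.139 (FDR 0.187). For zQ175:CK2a'(+/-) against zQ175 they belonged to Lrrtm1 at -0.37 (FDR 0.758) and Epb41l1 at 0.13 (FDR 0.849). Grin2b, another NMDA receptor subunit, was at 0.24 in CK2a'(+/-) against WT (edgeR FDR 0.999) and -0.25 in zQ175:CK2a'(+/-) against CK2a'(+/-) (FDR 0.436), 2 comparisons that share the CK2a'(+/-) mice. Of the 7 tested genes for the scaffold of the inhibitory synapse, none passed in any comparison, and Iqsec3 between zQ175:CK2a'(+/-) and CK2a'(+/-), at 0.27 (edgeR FDR 0.518), was the only one with an unadjusted p under 0.05, beside 9.19% of all genes.

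Among the genes outside the lists whose log2 CPM was most like the mean z-score of the 9 members over the 18 mice were Zbtb18 (r = 0.853), Prkce (0.837), Nckap1 (0.837) and Chrna7 (0.827). Without zQ175 replicate 5, which had the highest mean z-score at 1.26, the r of these genes was between 0.684 and 0.782.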

How the data were processed

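Striatal total RNA of 18 mice was sequenced, 1 library per mouse. The authors deposited raw counts per Ensembl gene with gene lengths, made with Trimmomatic, HISAT2 2.1.0 on GRCm38 and Subread 1.6.2 after removal of duplicated mappings and low-quality alignments. From these counts, log2 fold changes were fitted with edgeR 4.0.16 (R 4.3.3; TMM scaling, filterByExpr, quasi-likelihood test) on all 18 libraries with genotype as the only term and FDR 0.1 over 20914 genes. The study's methods used DESeq2, run here as an alternative (version 1.42.0). CPM and RPKM were computed here, log2 CPM with a prior count of 2. Of 55421 identifiers, 55154 matched a symbol. Total counts of 13612381 to 22702547 set the depth. The edgeR p-values set a group difference against the spread between mice, estimated over the 4 genotypes together. The fit was tested on simulated data.

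The 9 genes were named in every comparison, with, from each other list, the genes that passed (at most 4) or, where fewer than 2 passed, the 2 with the smallest p. Genes outside the lists were named by the likeness of their level to the members' mean z-score. Some results that these rules would name are not reported here. Members and lists were chosen with earlier results of these data known. The shares within families, the intronic readout of Dlg2 and Homer1, the offset for GC content and the joint removal of zQ175 replicates 3 and 5 were chosen after seeing the data. Other alternatives were another scaling, other filters, only the groups compared, a replicate block, an Xist covariate, a robust fit, FDR 0.05 and leaving out each mouse.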

Additional observations from a re-analysis of the deposited data

Results flagged for a closer look

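Of 27 groups of 5 mice examined for a mouse far from the others, 3 were picked out, where chance gives about 5% of groups. Dlg2 in WT replicate 2 was 622.3 CPM, against 353.2 to 413.1 CPM in the other WT mice, and that mouse also had the highest projection neuron markers at 8936 CPM. Dlgap1 in zQ175 replicate 5 was 302.9 CPM, against 161.2 to 201.6 CPM in the other zQ175 mice. Camk2a in zQ175 replicate 5 was 1664 CPM, against 745.9 to 950.2 CPM in the others, and that mouse had the highest cortical markers at 535 CPM. The part of either marker level in these values was not tested.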

How the results depend on the processing

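For zQ175 against WT, 1 of the 9 genes, Shank2, passed in place of 0 under DESeq2, the robust fit and the GC offset, and the count ran from 0 to 1 over the fits without 1 mouse, being 1 without WT replicate 5 or CK2a'(+/-) replicate 1 or 3. Without these mice in turn, 211 of 20801, 194 of 21760 and 339 of 21773 genes passed. For zQ175:CK2a'(+/-) against CK2a'(+/-), 2 passed with only these groups in the fit. Directions turned for 16 of the 54 log2 values of the 9 genes in 6 comparisons, none with a size above 0.155. With zQ175 replicates 3 and 5 left out these were Dlg3 at -0.0426 and Camk2a at -0.13 against WT, and Dlg3 at 0.20 and Camk2a at 0.0927 for zQ175:CK2a'(+/-) against zQ175. With the GC offset they were Dlgap1 at 0.015 and Camk2a at 0.0104 for zQ175:CK2a'(+/-) against WT and Dlg3 at 0.00059 against zQ175, where no filter gave 0.0039. With the Xist covariate they were Dlg4 at -0.0070 against zQ175, Shank1 at -0.15 for CK2a'(+/-) against WT and Dlg2 at -0.105 in the interaction. The cause was not tested.

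Over the fits without 1 mouse, values that turned ran as follows. For zQ175 against WT, Dlg2 ran from -0.13 to 0.10 and Camk2a from -0.12 to 0.22. For zQ175:CK2a'(+/-) against WT, Dlgap1 ran from -0.0564 to 0.0411, Shank1 from -0.0467 to 0.17 and Camk2a from -0.0803 to 0.0543. Against zQ175, Dlg3 ran from -0.0599 to 0.10, Dlg4 from -0.0402 to 0.0637, Homer1 from -0.0813 to 0.14 and Camk2a from -0.25 to 0.0838. For CK2a'(+/-) against WT, Shank1 ran from -0.15 to 0.30 and Shank2 from -0.18 to 0.0464. Against CK2a'(+/-), Dlg2 ran from -0.10 to 0.0235 and Shank1 from -0.20 to 0.25. In the interaction, Dlg2 ran from -0.16 to 0.0837 and Shank2 from -0.21 to 0.0201.

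The replicate numbers did not pair the mice, since same-numbered mice of different groups had r between -0.136 and 0.12 over 24 pairs. With the replicate block Dlg3 stood at 0.0096 for zQ175:CK2a'(+/-) against zQ175 and Shank1 at -0.0665 against CK2a'(+/-), and 98 genes of the table passed for zQ175 against WT and 12 for zQ175:CK2a'(+/-) against CK2a'(+/-), in place of 230 and 124. Those 2 counts were 855 and 322 with DESeq2, 451 and 297 without a filter, 51 and 27 at FDR 0.05, and 0 and 461 with only the groups compared. For zQ175 against WT the count was 63 with the GC offset and ran from 0 without WT replicate 3 or zQ175 replicate 5, and 10 without WT replicate 1, to 587 without WT replicate 2. For zQ175:CK2a'(+/-) against CK2a'(+/-) it ran from 6 without CK2a'(+/-) replicate 2 to 221 without WT replicate 2.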
